A study of Mus musculus with 32 samples.

Results

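The 10 genes described here are known responders to glucocorticoids, together with the gene of the glucocorticoid receptor itself: Nr3c1, Fkbp5, Zbtb16, Klf9, Hif3a, Tsc22d3, Sgk1, Errfi1, Mt1 and Mt2. They were found by symbol among 22337 genes and joined between the tables by Ensembl identifier. The list was chosen by values measured in meninges, since Fkbp5 and Zbtb16 were the 2 genes that separated light-treated from untreated 5xFAD meninges past the thresholds. Differences of these genes between groups of meninges are therefore given as a description without a test. In each tissue 9 of the 10 passed the expression filter, an FPKM (fragments per kilobase of transcript, scaled to depth) of at least 1 in at least 3 samples, and Hif3a did not.

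RNA-seq was performed on hippocampus (HPC), meninges and sorted meningeal lymphatic endothelial cells (mLECs) of male mice 6 months of age on a C57BL/6J background, with each sample from the tissue of 1 mouse. Whether samples of different tissues shared mice was not stated in the sources used here. 5xFAD mice, a model of amyloid deposition, carry transgenes that the Thy1 regulatory sequence drives in neurons, and WT mice were littermates without the transgenes. Light-treated 5xFAD mice received near-infrared light through the shaved scalp for 10 min, 3 times per week for 4 weeks, while control mice, by the study's methods, were anesthetized and shaved likewise and kept under indoor lighting. HPC came from 4 mice per group, and meninges and mLECs each came from 4 WT mice and from 3 mice of each 5xFAD group. The mLECs were sorted as CD45-CD31+PDPN+ cells, a gate that is set by surface proteins.

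Glucocorticoids enter cells and bind the glucocorticoid receptor, which moves to the nucleus and switches target genes on or off by binding DNA directly or through other factors. Several of its targets feed back on the hormone response: the product of Fkbp5 is a co-chaperone that lowers the receptor's affinity for hormone. In brain and in the cells of its coverings these targets are known to follow circulating corticosterone, which rises with stress and with the time of day. Metallothioneins, which bind zinc and copper, respond to glucocorticoids as well as to metals.

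The bases before an annotated RefSeq start (GRCm38.p6) are printed for Sgk1, Mt1 and Fkbp5. They show the DNA in front of members on which the results turn. Among members past the expression filter, Sgk1 had the largest fall between WT and light-treated 5xFAD HPC. Fkbp5 had the largest fall between untreated and light-treated 5xFAD meninges. The Sgk1 stretch is chr10:21993640-21993889 on the plus strand, inside the gene's span and in front of an internal start. It was picked among several annotated Sgk1 starts because it held the full palindrome given below. The Mt1 stretch is chr8:94178839-94179081 on the plus strand and ends at the first annotated exon. The Fkbp5 stretch is chr17:28486150-28486399, also in front of a start inside the gene's span, and is written as the minus strand. Capitals mark matches to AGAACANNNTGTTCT, the full palindrome bound by the glucocorticoid receptor, to its looser core GNACANNNTGTNC, to the metal elements TGCACNC and TGCGCNC, and to the E-box CACGTG.
Sgk1: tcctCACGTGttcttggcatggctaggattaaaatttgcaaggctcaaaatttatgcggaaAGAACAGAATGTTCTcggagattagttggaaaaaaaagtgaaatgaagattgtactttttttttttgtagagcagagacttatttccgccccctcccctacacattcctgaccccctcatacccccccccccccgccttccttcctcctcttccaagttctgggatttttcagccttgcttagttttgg
Mt1: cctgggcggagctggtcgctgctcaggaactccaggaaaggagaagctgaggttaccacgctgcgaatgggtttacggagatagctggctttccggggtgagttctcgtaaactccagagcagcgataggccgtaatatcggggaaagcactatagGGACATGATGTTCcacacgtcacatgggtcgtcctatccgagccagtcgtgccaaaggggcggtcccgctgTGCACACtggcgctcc
Fkbp5: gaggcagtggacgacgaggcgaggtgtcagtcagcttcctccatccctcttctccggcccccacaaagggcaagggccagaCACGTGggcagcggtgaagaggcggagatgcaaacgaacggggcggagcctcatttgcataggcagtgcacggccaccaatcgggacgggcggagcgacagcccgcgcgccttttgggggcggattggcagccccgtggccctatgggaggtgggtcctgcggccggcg

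Both strands of the 250 bases before each annotated start were searched, and 8 of the 10 members had such an entry, with 16 starts in all. The full palindrome occurred before 1 Sgk1 start, between 189 and 175 bases upstream, and in 3 of 32851 windows of the whole table (0.00913%). The looser core, which lies within the full palindrome, was matched in that window and also in Mt1, between 94 and 82 bases upstream, and in 0.387% of all windows. The windows of the other Sgk1 starts held neither the full palindrome nor the looser core. Metal elements were found in the windows of Mt1, Mt2 and Hif3a and in 21.4% of all windows, and the E-box in those of Sgk1 and Fkbp5 and in 6.02% of all windows. The printed Fkbp5 window held neither of the glucocorticoid motifs, which says only that these letters are not in it, and a match elsewhere is a description of letters and not a binding site.

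Libraries held 13952825 to 23856476 expected counts (HPC), 6601143 to 14708202 (meninges) or 14231415 to 24207326 (mLECs). Summed over 6 neuronal markers, FPKM lay between 1604 and 2175 in HPC. Summed over 8 fibroblast markers, it lay between 1467 and 2757 in meninges, where 6 choroid plexus markers summed to between 15792 and 49647. In HPC, 3 libraries (WT replicate 2 and untreated 5xFAD replicates 1 and 2) had choroid plexus sums above 1000. In mLECs the leukocyte gene Ptprc was at 0 in every library and 7 lymphatic markers summed to between 1156 and 9718 in 8 libraries, but WT replicates 2 and 4 had sums of only 38.0 and 55.7 and thus went against their label. In these bulk samples fewer cells of a type and less RNA per cell cannot be told apart.

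In HPC, Sgk1 and Tsc22d3 were lower in light-treated 5xFAD mice than in WT mice, by 2.53-fold and 2.42-fold, and these were the 2 of 9 tested members called, that is with an adjusted p below 0.05 and at least a 2-fold change. Among all 12981 genes tested in this comparison, 0.10% were called lower. The groups compared differ in both genotype and light. No light-treated WT mice were among the samples, so these cannot be told apart here. Errfi1 and Zbtb16 were also lower with an adjusted p below 0.05 but by less than 2-fold, which makes 4 of 9 members against 0.539% of all genes lower by adjusted p alone. Fkbp5, Klf9, Mt1, Mt2 and Nr3c1 did not pass the test. The median log2 fold change of the 9 members was -0.09, and that of all genes was -0.0015. In 4 of the 9 every light-treated mouse lay below every WT mouse, as in 7.52% of all genes. The members were chosen with earlier results of these data known. Counts of members in HPC, here and below, are therefore a description and not independent support.

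Sgk1 (ENSMUSG00000019970, chr10:21882184-21999903) encodes a kinase that promotes sodium transport and cell survival. Its FPKM in HPC was 128, 62.7, 120.4 and 87.1 in the WT mice, 67.0, 73.5, 74.5 and 90.5 in the untreated 5xFAD mice and 36.5, 37.9, 39.8 and 37.9 in the light-treated 5xFAD mice. All 4 light-treated mice lay within a narrow band below every mouse of the other groups. Sgk1 had a log2 fold change between light-treated 5xFAD and WT mice of -1.34 ± 0.18 (SE), with an adjusted p of 0.00074 by edgeR. Against untreated 5xFAD mice it was -0.98 ± 0.18 (SE, adjusted p = 0.0482), a 1.97-fold fall just short of the fold threshold. Leaving out any 1 light-treated mouse, or untreated 5xFAD replicate 1, 3 or 4, raised this adjusted p to between 0.0527 and 0.18.

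Tsc22d3 (ENSMUSG00000031431, chrX:140539528-140600659) encodes GILZ, a leucine zipper protein that restrains inflammatory transcription factors. Its FPKM in HPC was 108, 70.1, 74.9 and 81.8 in WT mice, 30.7, 76.6, 90.8 and 75.3 in untreated 5xFAD mice and 31.8, 39.0, 36.0 and 33.1 in light-treated mice. Untreated 5xFAD replicate 1 lay below every light-treated mouse, and the other 3 untreated mice lay above all of them. Its log2 fold change was -1.27 ± 0.25 (SE) between light-treated 5xFAD and WT mice, with an adjusted p of 0.00948. It was -0.98 ± 0.25 (SE) between light-treated and untreated 5xFAD mice, with an adjusted p of 0.0853. Without untreated 5xFAD replicate 1 the latter became -1.22 with an adjusted p of 0.0177.

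Errfi1, whose product inhibits the epidermal growth factor receptor, followed a similar order. Its FPKM was 26.9, 19.6, 22.7 and 21.3 in WT, 21.5, 15.4, 11.6 and 18.8 in untreated 5xFAD and 13.9, 14.6, 11.7 and 12.6 in light-treated 5xFAD HPC. The light-treated mice lay below all WT mice and overlapped the untreated 5xFAD mice. The log2 fold change of light-treated 5xFAD against WT mice was -0.77 ± 0.17 (SE, adjusted p = 0.0172), and the adjusted p exceeded 0.05 without WT replicate 1 (0.0693) or light-treated replicate 3 (0.0588) or 4 (0.0568).

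Markers of other cell types also differed between the HPC groups. The summed FPKM of 8 meningeal fibroblast markers in HPC was 45.8 to 68.3 in WT mice, 74.8 to 162 in untreated 5xFAD mice and 24.0 to 44.5 in light-treated 5xFAD mice, with no overlap between light-treated mice and the other groups. With the log2 of this sum as a covariate, the log2 fold change between light-treated 5xFAD and WT mice was -1.24 for Sgk1 (adjusted p = 0.0275) and -1.03 for Tsc22d3 (adjusted p = 0.238). Between light-treated and untreated 5xFAD mice it was -0.72 for Sgk1 and -0.42 for Tsc22d3, each with an adjusted p of 1. The sum did not overlap between any of the HPC groups, so fits with this covariate could not separate group from marker differences. Without the 3 libraries high in choroid plexus markers the falls against untreated 5xFAD mice were -1.07 for Sgk1 (adjusted p = 0.0199) and -1.26 for Tsc22d3 (adjusted p = 0.00926), so that both were called. Those libraries included untreated 5xFAD replicates 1 and 2, so that only untreated replicates 3 and 4 remained. Leaving out untreated replicate 1 alone gave -1.22 for Tsc22d3 by edgeR (adjusted p = 0.0177). The part of the choroid plexus markers was therefore not separated from that of single mice. Summed microglial and macrophage markers were 318 to 352 in WT, 1214 to 2360 in untreated 5xFAD and 879 to 1659 in light-treated 5xFAD HPC, and their part in these results was not tested.

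**Figure D1:**
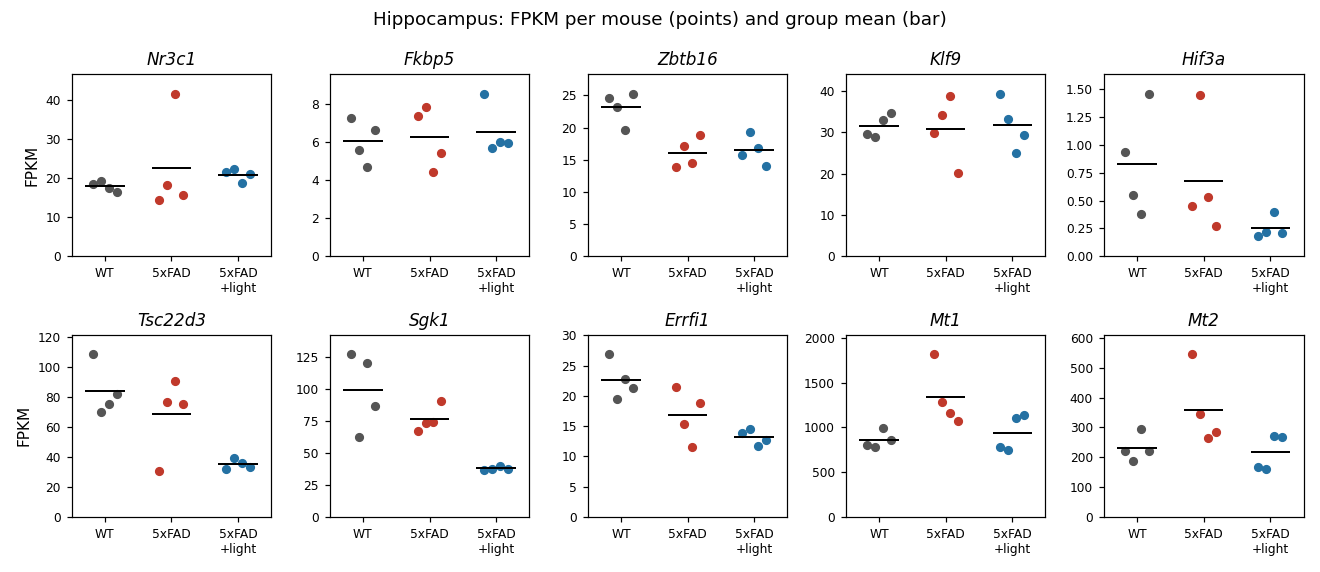
FPKM of each of the 10 genes in HPC (vertical axis, linear from 0) with 4 mice in each group, a point per mouse and a bar at the group mean. The light-treated mice sit between 36.5 and 39.8 for Sgk1, below all other mice, whereas Fkbp5 overlaps between all groups.

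Between untreated 5xFAD and WT HPC, 0 of 9 members were called by edgeR, where 4.28% of all genes were, with 2 higher and 2 lower at an unadjusted p below 0.05, against 13.7% and 10.2% of all genes. DESeq2 and limma likewise called 0. Zbtb16 (ENSMUSG00000066687, chr9:48654297-48836222), a zinc finger transcription factor also known as PLZF, was the member that passed by adjusted p with edgeR, against 2.06% of all genes lower on that rule. Its FPKM was 24.7, 23.2, 19.7 and 25.3 in WT mice and 13.8, 17.2, 14.5 and 18.8 in untreated 5xFAD mice, and every 5xFAD mouse lay below every WT mouse, as was true of 5.79% of all genes. The log2 fold change was -0.51 ± 0.10 (SE, adjusted p = 0.00701), and without the 3 libraries high in choroid plexus markers it was -0.52 with an adjusted p of 0.0746. With the fibroblast marker covariate it was -0.62 with an adjusted p of 0.155.

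Light-treated 5xFAD mice had Zbtb16 levels of 15.8, 19.3, 16.9 and 14.0 in HPC, and these also lay below every WT mouse. Their log2 fold change was -0.47 ± 0.10 (SE, adjusted p = 0.0202) against WT mice and 0.04 ± 0.10 (SE, adjusted p = 0.862) against untreated 5xFAD mice, with overlapping groups. The comparison with WT mice no longer passed without any 1 of WT replicates 1 and 4 and light-treated replicates 1 and 4, where adjusted p was 0.0625 to 0.0825.

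Mt1 and Mt2 had positive log2 fold changes between untreated 5xFAD and WT HPC, and neither passed the edgeR test. By DESeq2 Mt1 passed by adjusted p, at 0.63 (adjusted p = 0.0167), as it did by edgeR without untreated 5xFAD replicate 4, at 0.75 (adjusted p = 0.0322). Mt1 had an FPKM of 806, 785, 997 and 858 in WT mice, 1816, 1283, 1157 and 1075 in untreated 5xFAD mice and 784, 742, 1103 and 1138 in light-treated 5xFAD mice. Every untreated 5xFAD mouse lay above every WT mouse, which held for 8.75% of all genes, and the light-treated mice overlapped both groups. For Mt1 the log2 fold change was 0.64 ± 0.20 (SE, adjusted p = 0.061) for 5xFAD against WT mice and -0.50 ± 0.20 (SE, adjusted p = 0.198) for light-treated against untreated 5xFAD mice. Mt2 had an FPKM of 221, 188, 296 and 220.0 in WT, 545, 344, 263 and 283 in untreated 5xFAD and 165, 160.3, 270.0 and 269 in light-treated 5xFAD mice. Its log2 fold changes in the same comparisons were 0.65 ± 0.26 (SE, adjusted p = 0.147) and -0.73 ± 0.26 (SE, adjusted p = 0.167), with overlapping groups in both.

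Fkbp5 did not separate the groups in HPC. Its FPKM was 7.25, 5.59, 4.70 and 6.64 in WT mice, 7.38, 7.83, 4.41 and 5.41 in untreated 5xFAD mice and 8.54, 5.67, 5.98 and 5.96 in light-treated 5xFAD mice. The log2 fold change between light-treated and untreated 5xFAD mice was 0.06 ± 0.20 (SE, adjusted p = 0.892). Klf9, a zinc finger factor induced by glucocorticoids in neurons, ranged from 20.1 to 39.3 over the 12 mice, with log2 fold changes of -0.03 between untreated 5xFAD and WT mice and 0.04 between light-treated and untreated 5xFAD mice, and adjusted p of 0.946 and 0.939. Nr3c1 ranged from 14.4 to 22.2 in 11 of the 12 HPC samples and was 41.5 in untreated 5xFAD replicate 3. It had a log2 fold change of 0.22 ± 0.24 (SE, adjusted p = 0.61) between untreated 5xFAD and WT mice, which became -0.15 without that replicate. Hif3a, a member of the hypoxia-inducible factor family, ranged from 0.18 to 1.46 and was not tested.

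Between light-treated and untreated 5xFAD HPC, 0 of 9 members were called by edgeR, DESeq2 or limma, where 0.270% of all genes were called by edgeR, and 5 of the 9 had an unadjusted p below 0.05, all lower, against 9.81% of all genes. By adjusted p alone Sgk1 was the member that passed with edgeR, against 0.185% of all genes lower, and Tsc22d3 passed as well with DESeq2 (adjusted p = 0.0065). Only Sgk1 had groups without overlap, as did 3.98% of all genes in that direction. The comparisons with WT and with untreated 5xFAD mice share samples and were therefore not set against each other.

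Across the 12 HPC samples, the deviations of Fkbp5 from its group means on the log2(FPKM + 1) scale were compared with those of the other 9 members. Pearson's r ranged from -0.50 for Nr3c1 to 0.52 for Hif3a, and Spearman's rho from -0.38 for Sgk1 to 0.46 for Hif3a. None of the 9 passed a permutation test within groups, with 0 at an unadjusted p below 0.05 and Benjamini-Hochberg adjusted p between 0.673 and 0.827 for r and of 0.743 for rho. Without the 2 samples farthest from the median of Fkbp5, r ranged from -0.13 for Sgk1 to 0.78 for Hif3a. These 2 samples included untreated 5xFAD replicate 3, the sample high in Nr3c1, and the r of Nr3c1 was then 0.05. Hif3a had not passed the expression filter in HPC, where its highest FPKM was 1.46. The 5 genes with the highest Pearson's r to Fkbp5 over the same 12 deviations, given as a description, were Rbak (0.963), Pot1b (0.921), Ip6k2 (0.886), Pgbd5 (0.875) and Kyat1 (0.873).

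In meninges the values of the members were those by which the list was drawn up. Fkbp5 and Zbtb16 had much lower levels in light-treated 5xFAD mice than in either other group, by 5.94-fold and 5.51-fold against untreated 5xFAD mice. All 9 members measured had negative log2 fold changes in that comparison, with a median of -1.27, against 0.04 over 14318 genes. When single libraries were left out, Sgk1 ranged from -0.32 to 0.18 and was positive without untreated 5xFAD replicate 4 (0.18) or light-treated replicate 1 (0.015), Nr3c1 ranged from -0.60 to -0.058 and Tsc22d3 from -1.10 to -0.49. In 5 of the 9 every light-treated mouse lay below every untreated 5xFAD mouse, which was the case for 10.7% of all genes. The thresholds were passed by 0.0140% of all genes, the 2 members that chose the list, and nothing is read from that count.

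Fkbp5 (ENSMUSG00000024222, chr17:28399094-28517527) had a meningeal FPKM of 24.0, 17.8, 23.8 and 26.2 in WT mice, 24.5, 34.2 and 18.5 in untreated 5xFAD mice and 5.13, 3.99 and 3.52 in light-treated 5xFAD mice. The light-treated mice did not overlap with the other groups, which overlapped with each other. The log2 fold change was -2.57 ± 0.29 (SE) against untreated 5xFAD mice and -2.39 ± 0.28 (SE) against WT mice. Zbtb16 had a meningeal FPKM of 19.5, 11.8, 14.5 and 15.9 in WT, 12.2, 14.2 and 9.51 in untreated 5xFAD and 2.46, 3.51 and 1.36 in light-treated 5xFAD mice. These groups showed the same arrangement, with log2 fold changes of -2.46 ± 0.31 (SE) against untreated 5xFAD mice and -2.84 ± 0.30 (SE) against WT mice. Klf9 was also lower without overlap, at 44.1, 29.2, 77 and 87.3 in WT mice, 29.3, 45.7 and 73.1 in untreated 5xFAD mice and 24.4, 17.1 and 19.5 in light-treated mice, with a log2 fold change of -1.27 ± 0.42 (SE) against untreated 5xFAD mice.

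The metallothioneins of the meninges were lowest in light-treated mice. Mt1 had an FPKM of 2221, 834, 1466 and 2647 in WT, 1128, 1511 and 876 in untreated 5xFAD and 571, 554 and 600.2 in light-treated 5xFAD meninges, with a log2 fold change of -1.03 ± 0.37 (SE) between the 5xFAD groups. Mt2 had 935, 208, 417 and 949.6 in WT mice, 293, 531 and 189 in untreated 5xFAD mice and 130.1, 141 and 129 in light-treated 5xFAD mice, with a log2 fold change of -1.35 ± 0.50 (SE). Light-treated mice lay below all other mice for both genes.

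The signalling members of the meninges overlapped between groups. Errfi1 had an FPKM of 107, 15.4, 70.5 and 98.2 in WT mice, 19.5, 64.9 and 102 in untreated 5xFAD mice and 17.9, 32.5 and 12.4 in light-treated mice, so that low values also occurred in WT replicate 2 and untreated 5xFAD replicate 1. Its log2 fold change between the 5xFAD groups was -1.61 ± 0.64 (SE). Tsc22d3 had 349, 234, 187 and 216 in WT mice, 171, 266 and 388 in untreated 5xFAD mice and 197, 173 and 101 in light-treated mice, with a log2 fold change of -0.83 ± 0.35 (SE) between the 5xFAD groups. Sgk1 had meningeal log2 fold changes of -0.12 ± 0.31 (SE) against untreated 5xFAD mice and -0.50 ± 0.29 (SE) against WT mice. Nr3c1 ranged from 20.3 to 34.2 over all 10 meninges, and Hif3a from 0.05 to 0.76. Between untreated 5xFAD and WT meninges, log2 fold changes of the members ran from -0.89 for Mt2 to 0.50 for Nr3c1. Summed fibroblast markers of the meninges were 1573 to 2159 in WT, 1467 to 2757 in untreated and 1843 to 2381 in light-treated mice, and summed leukocyte markers 509 to 1305, 553 to 2666 and 573 to 6478. Both sets overlapped between all groups, and their part in these values was not tested. Choroid plexus sums in meninges are given above over all groups and not by group, and their part was not tested either.

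**Figure D2:**
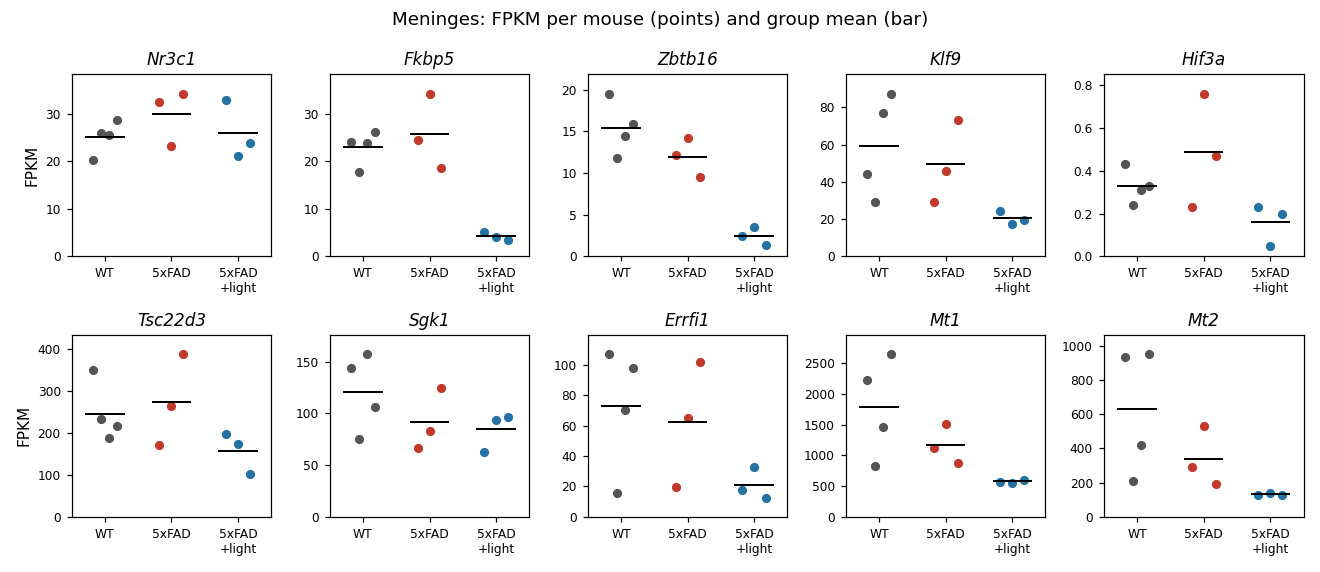
FPKM of each gene in meninges (vertical axis, linear from 0) with 4 mice in the WT group and 3 in each 5xFAD group, a point per mouse and a bar at the group mean. The light-treated mice sit between 3.52 and 5.13 for Fkbp5 and between 1.36 and 3.51 for Zbtb16, below all mice of the other groups.

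In mLECs 0 of 9 members were called in any of the 3 comparisons by edgeR, DESeq2 or limma, with 0 at an unadjusted p below 0.05, and all had an adjusted p of 1 by edgeR. Over 8188 genes the share called by edgeR was 0 between untreated 5xFAD and WT mice, 0 between light-treated and untreated 5xFAD mice and 0.0122% between light-treated 5xFAD and WT mice. The biological coefficient of variation was 1.89, against 0.198 in HPC. Differences of the size seen in the other tissues were therefore not detectable in these samples. Without the 2 WT libraries low in lymphatic markers, 0 members were called as well.

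Fkbp5 varied widely within mLEC groups, with an FPKM of 29.9, 46.6, 0.26 and 13.2 in WT mice, 2.54, 0.23 and 10.5 in untreated 5xFAD mice and 9.70, 21.3 and 23.7 in light-treated 5xFAD mice. Zbtb16 was at 0 in 5 of the 10 libraries, and its highest FPKM was 7.99 in WT replicate 3. Klf9 had 58.8, 19.9, 28.8 and 97.7 in WT mice, 44.4, 18.7 and 69.0 in untreated 5xFAD mice and 70.3, 106 and 86.9 in light-treated 5xFAD mice. The light-treated mice lay above all untreated 5xFAD mice for 3 members, Klf9, Mt1 and Nr3c1, as did 3.55% of all genes. For Klf9 the log2 fold change was 1.05 ± 0.73 (SE) and for Tsc22d3, at 143, 92.4 and 37.3 in untreated and 138, 186 and 229 in light-treated 5xFAD mice, it was 1.06 ± 0.62 (SE).

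Mt1 in mLECs had an FPKM of 1080.0, 456, 845 and 579 in WT, 1055, 1113 and 635 in untreated 5xFAD and 1138, 1118 and 1465 in light-treated 5xFAD mice. Mt2 had 611, 122, 466 and 376 in WT mice, 802, 512 and 194 in untreated 5xFAD mice and 699.9, 706 and 807 in light-treated 5xFAD mice. Light-treated mice lay above all WT mice for both, as did 3.64% of all genes. Their log2 fold changes against WT mice were 0.59 for Mt1 and 0.77 for Mt2. Without the WT libraries low in lymphatic markers these were 0.17 and 0.26. Sgk1 ranged from 184 to 485, Errfi1 from 18.4 to 101 and Nr3c1 from 5.79 to 78.2, and Hif3a was at 0 in 9 of the 10 libraries. Lymphatic marker sums were 3079 to 9718 in light-treated and 1156 to 4490 in untreated 5xFAD mice, and their part in these values was not tested.

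**Figure D3:**
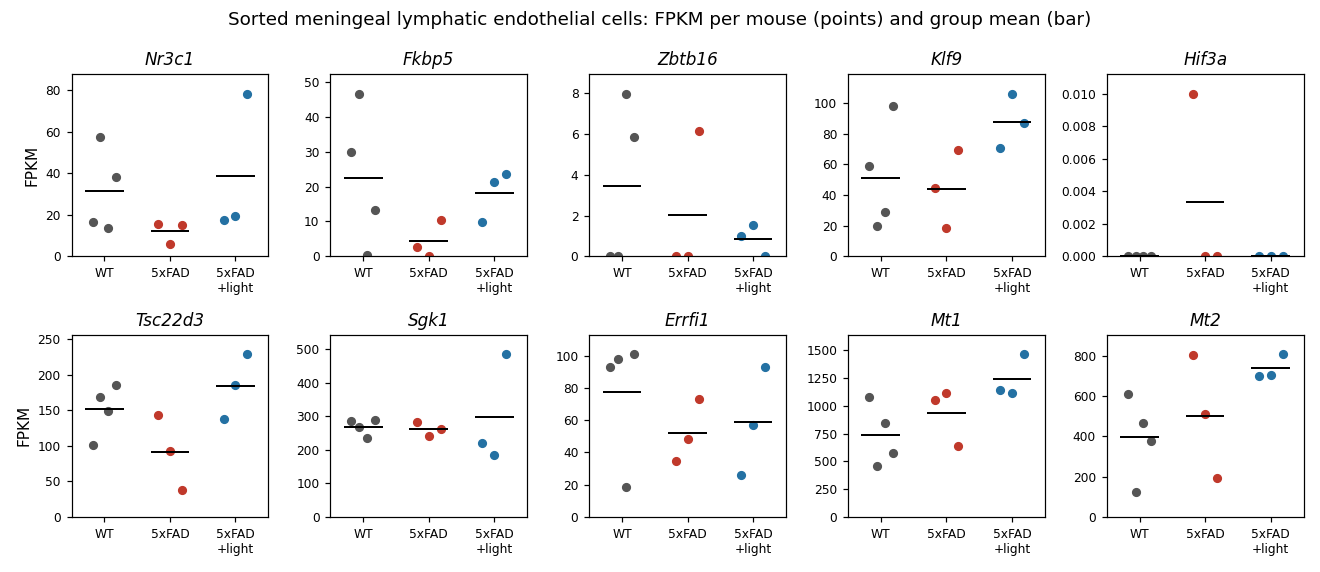
FPKM of each gene in sorted mLECs (vertical axis, linear from 0) with 4 mice in the WT group and 3 in each 5xFAD group, a point per mouse and a bar at the group mean. Fkbp5 spans 0.26 to 46.6 within the WT group, and Hif3a is at 0 in all but 1 library, where it is 0.01.

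**Figure D4:**
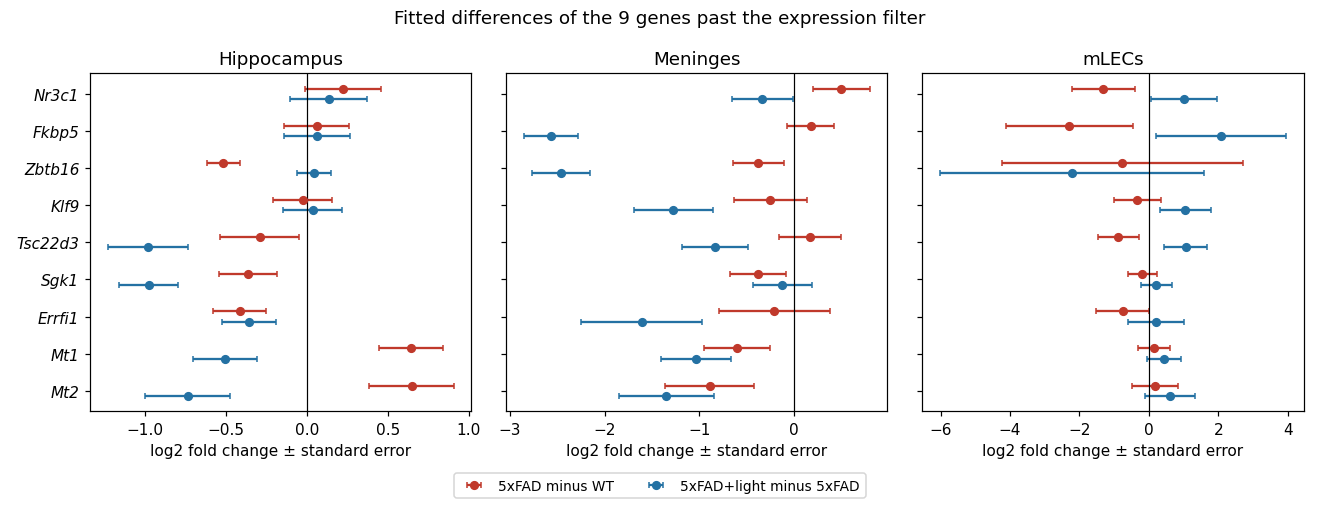
Log2 fold changes from edgeR with standard errors (horizontal axis) for the 9 members past the filter in HPC, meninges and mLECs, red for untreated 5xFAD minus WT and blue for light-treated minus untreated 5xFAD. The axis ranges differ between panels; Sgk1 and Tsc22d3 lie near -1 in HPC and Fkbp5 and Zbtb16 near -2.5 in meninges, while the standard errors in mLECs reach 3.81.

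Levels of the members in WT mice differed between tissues, in a fit that took samples of the 2 tissues as independent. Meninges exceeded HPC past both thresholds for 5 of 9 members, where 28.3% of all 14144 genes were called higher. The list was chosen by falls in meninges, which need a level there to fall from. This count and the values of single members below are therefore not independent of that choice. Fkbp5 was 3.58-fold higher in meninges, with a log2 fold change of 1.84 ± 0.18 (SE, adjusted p = 6.7e-06). Errfi1 was 3.10-fold higher (adjusted p = 0.00814) and Tsc22d3 2.85-fold higher (adjusted p = 0.000179). Mt2 was 2.62-fold higher (adjusted p = 0.0127) and Mt1 2.02-fold higher (adjusted p = 0.0134). The fold of Mt1 fell under the threshold, and its call was lost, without the filter, with the replicate block, by limma and without HPC replicate 1 or 2 or meninges replicate 1 or 4, where its log2 fold change was 0.78 to 0.97 with an adjusted p of 0.0169 to 0.0399. Zbtb16 was the member with a lower level in meninges, at a log2 fold change of -0.57 ± 0.19 (SE, adjusted p = 0.0184), where 33.2% of all genes were lower by adjusted p, and it lost significance without any 1 of HPC replicates 1 and 4 and meninges replicate 3. Nr3c1 (0.88 ± 0.21, SE, adjusted p = 0.0033) and Klf9 (0.85 ± 0.30, SE, adjusted p = 0.0251) were higher by adjusted p alone, and Klf9 lost significance without HPC replicate 1 (0.0631) or 2 (0.0652) or meninges replicate 3 (0.0604) or 4 (0.0738). Sgk1 did not pass the test, at 0.21 ± 0.27 (SE, adjusted p = 0.506).

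**Figure D5:**
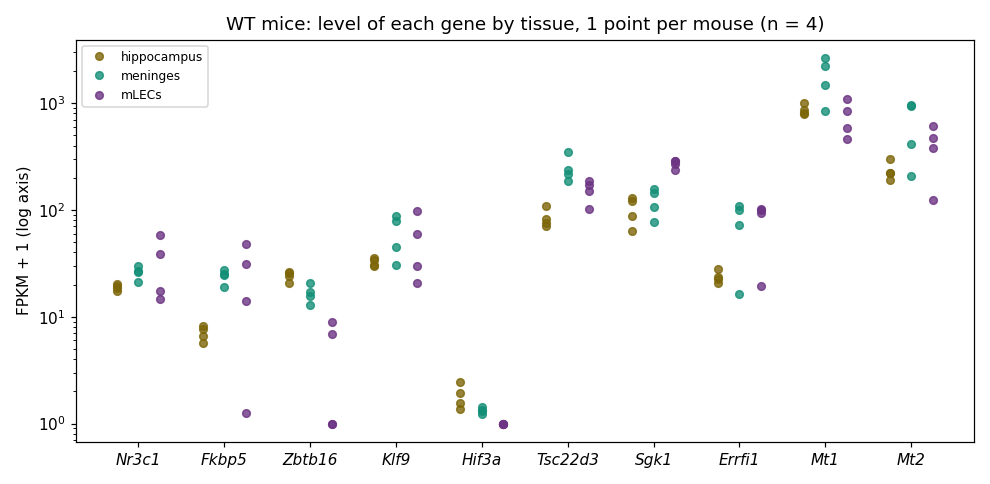
FPKM + 1 (log axis) of the 10 genes in WT mice, with 1 point per mouse (n = 4) for HPC, meninges and mLECs. Mt1 and Mt2 were the most abundant members in HPC, with Mt1 between 785 and 997, and Hif3a the least, and 3 of the WT meninges were above every WT HPC for Errfi1.

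Other glucocorticoid-responsive genes were then counted from a list of 21, of which 20 were tested in HPC and meninges. The list was drawn up with earlier results of these data known, so its counts are a description and not independent support. In HPC, 17 of the 20 had negative log2 fold changes between light-treated and untreated 5xFAD mice, with a median of -0.42 against -0.02 for all genes. None was called by edgeR, and 10 had an unadjusted p below 0.05, all lower, where 9.81% of all genes did. The smallest p belonged to Cdkn1a, which encodes the cell cycle inhibitor p21, at -1.67 ± 0.34 (SE, adjusted p = 0.0502), and to Nfkbia, an inhibitor of NF-kappaB, at -0.90 ± 0.21 (SE, adjusted p = 0.0687). Cdkn1a had FPKM of 8.19 to 33.5 in untreated and 4.89 to 7.28 in light-treated 5xFAD HPC. Summed fibroblast markers also differed between these groups, as given above, and their part in the values of this list was not tested.

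Between light-treated 5xFAD and WT HPC, 16 of these 20 genes had negative values with a median of -0.38 and 0 were called, while 2 passed by adjusted p alone, as did 0.539% of all genes in that direction: Nfkbia at -0.86 ± 0.21 (SE, adjusted p = 0.0335) and Ddit4, a repressor of mTOR signalling, at -0.75 ± 0.19 (SE, adjusted p = 0.0458). Between untreated 5xFAD and WT HPC, the median was 0.25 and 1 gene was called, Rasd1, which encodes a Ras-like protein, at -1.03 ± 0.26 (SE, adjusted p = 0.0244), where 4.28% of all genes were called and 0.0539% called lower. Tgm2, which encodes a transglutaminase, was higher by adjusted p alone, at 0.75 ± 0.18 (SE, adjusted p = 0.0208). Fos, of a list of 8 immediate early genes, was called higher there, at 1.07 ± 0.29 (SE, adjusted p = 0.0377). Nr3c2, the mineralocorticoid receptor, which binds the same hormone, was lower in untreated 5xFAD than WT HPC by adjusted p alone, at -0.92 ± 0.24 (SE, adjusted p = 0.032). Its value between light-treated and untreated 5xFAD mice was 1.06 ± 0.24 (SE, adjusted p = 0.0687).

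Of 16 clock genes tested in HPC, 0 were called in the 3 comparisons. By adjusted p alone, Cry2, a repressor of the clock, was lower in untreated 5xFAD than in WT mice, at -0.42 ± 0.09 (SE, adjusted p = 0.0146), as was Arntl, which encodes the clock activator BMAL1, at -0.41 ± 0.10 (SE, adjusted p = 0.0192). Per2, another clock repressor, was lower in light-treated 5xFAD than in WT mice, at -0.91 ± 0.22 (SE, adjusted p = 0.033). Between light-treated and untreated 5xFAD mice, 10 of the 16 clock genes, 6 of 14 genes that handle the receptor or its hormone, 2 of 3 metal response genes and 6 of 8 immediate early genes had negative values, and 0 were called in these lists.

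In meninges, 18 of the 20 other glucocorticoid-responsive genes had negative log2 fold changes between light-treated and untreated 5xFAD mice, with a median of -0.49 against 0.04 for all genes. None of them was called, and 8 had an unadjusted p below 0.05, all lower, where 7.71% of all genes did. The members were chosen in this same comparison, so these counts are not independent support either. Map3k6, a stress-activated kinase, had -1.85 ± 0.53 (SE, adjusted p = 0.286) and Nfkbia -1.18 ± 0.36 (SE, adjusted p = 0.289). In the same comparison 10 of 15 genes that handle the receptor or its hormone had negative values with a median of -0.18, and 11 of 16 clock genes with a median of -0.12, and none of either list was called. Per1, which is both a clock gene and a glucocorticoid target, had -1.65 ± 0.60 (SE, adjusted p = 0.315). In mLECs 9 of 17 other glucocorticoid-responsive genes had positive values between light-treated and untreated 5xFAD mice, with a median of 0.03.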

How the data were processed

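RNA-seq by Smart-seq2 was performed on 32 samples, each from 1 mouse, and groups were taken from the submitters' labels. The expected counts per gene were made by the authors with fastp and RSEM, per the study's methods, and deposited for each sample. The FPKM values, which the authors derived from the same reads, were deposited beside them. The submitters' processing notes name mm10, Trimmomatic, HISAT2, StringTie and DESeq2 and thus other tools. There were 0 value columns without a sample.

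Expected counts were rounded to whole numbers (81.6 to 89.6% already were, by library), TMM-scaled and tested with edgeR (4.0.16, R 4.3.3) by its quasi-likelihood test, with the 3 groups of a tissue in 1 fit and the Benjamini-Hochberg adjustment over all genes that reached an FPKM of 1 in 3 or more samples. WT meninges and WT HPC were tested in a fit of their own. Calls required both a 2-fold change or more and an adjusted p under 0.05. The members and the other gene lists were chosen with earlier results of these data known. Beyond the members, the genes named were those called, or otherwise those with the smallest p, in each list and comparison, and the 5 genes most like Fkbp5. On simulated counts for light-treated against untreated 5xFAD mice, 2-fold changes were recovered in 153 of 200 genes in HPC, 5 in meninges and 0 in mLECs. Recovery here required the right direction and an adjusted p under 0.05, without the fold threshold that calls also had to meet.

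Alternatives were median-of-ratios scaling, no filter, only the 2 groups compared, the replicate number as a block, DESeq2 (1.42.0), limma (3.58.1) on log2(FPKM + 1) and log2(FPKM + 0.1), no fold threshold and leaving out each replicate. A further 3 were chosen after seeing the data: HPC without 3 libraries with choroid plexus sums above 1000, HPC with the fibroblast marker sum as a covariate, and mLECs without 2 libraries with lymphatic sums below 100. No pair of replicates agreed within sampling noise (lowest chi-square per degree of freedom 9.25 over 42 pairs). Depth and tissue were not equal, so levels of sorted cells and tissues are set side by side without a test.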

Additional observations from a re-analysis of the deposited data

Results flagged for a closer look

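In 3 of 49 groups of 4 samples, a sample lay apart from the other three by Dixon's criterion, which chance alone gives in about 1 in 20 groups. Errfi1 was lowest in mLECs of WT replicate 3, at an FPKM of 18.4. Fkbp5 was highest in HPC of light-treated 5xFAD replicate 1, at 8.54, and Nr3c1 in HPC of untreated 5xFAD replicate 3, at 41.5.

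For 3 members the light-treated mice lay above every mouse of a comparison group in mLECs and below every such mouse in meninges. These were 2 of 9 in each comparison, and the same held for 0.432% of 8095 genes tested in both tissues against untreated 5xFAD mice and for 0.173% against WT mice. The meningeal part of this rule used values by which the list was chosen, and no member passed the test in mLECs. Nothing is therefore read from these counts. Against untreated 5xFAD mice, the log2 fold change in mLECs exceeded that in meninges by 2.32 for Klf9 and by 1.48 for Mt1. Against WT mice, with all WT libraries in the fit, it did so by 2.23 for Mt1 and by 3.01 for Mt2. Whether the tissues differ in these responses was not tested.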

How the results depend on the processing

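Counts of called members kept within 1.5 times under the alternatives except for these. Without the fold threshold they were 1 in HPC between untreated 5xFAD and WT mice and 1 between light-treated and untreated 5xFAD mice (0 with it in both), 4 between light-treated 5xFAD and WT mice (2 with it) and 8 between WT meninges and WT HPC (5 with it). Between light-treated and untreated 5xFAD HPC the count was 2 without the libraries high in choroid plexus markers and 0 to 1 when single replicates were left out, with the 1 without untreated 5xFAD replicate 1. With the fibroblast covariate it was 1 between light-treated 5xFAD and WT HPC. In these the cause was not tested.

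Replicate numbers did not pair the samples, with correlations of same-numbered deviations from -0.316 to 0.256, and with the replicate block the counts in HPC were 0, 0 and 2. Zbtb16 between light-treated 5xFAD and WT HPC then had an adjusted p of 0.0589, and in mLECs the values that turned were 7.80 and 7.07 for Zbtb16 (against untreated 5xFAD and WT mice) and 0.77 for Fkbp5 (against WT mice).

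Zbtb16 in that comparison also missed 0.05 by limma (adjusted p 0.0626 and 0.0605) and with the fibroblast covariate (0.336), as did Errfi1 with the covariate (0.157), while Nr3c1 there passed with only the 2 groups in the fit, at 0.36 (0.0497). Other changes of sign concerned log2 fold changes that had not passed the test. In HPC without the libraries high in choroid plexus markers these were Fkbp5 at -0.36 for 5xFAD against WT mice, Nr3c1 at -0.080 for light-treated against untreated mice and Klf9 at -0.040 for light-treated against WT mice. With the fibroblast covariate they were Klf9 at 0.35 for 5xFAD against WT mice, Fkbp5 at -0.71 and Klf9 at -0.62 for light-treated against untreated mice, and Fkbp5 at -0.23 and Klf9 at -0.27 for light-treated against WT mice. Klf9 in the last comparison was -0.010 without the filter, -0.0081 by limma with a pseudocount of 1 and -0.0088 with 0.1. In mLECs limma gave Zbtb16 0.51 (pseudocount 0.1) against untreated 5xFAD mice, and against WT mice Nr3c1 0.17 and 0.18 and Fkbp5 0.50 and 0.92 (pseudocounts 1 and 0.1). Without the WT libraries low in lymphatic markers, Mt1 was -0.28 and Mt2 -0.34 for 5xFAD against WT mice and Nr3c1 0.54 for light-treated against WT mice.

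Leaving out single replicates gave ranges that crossed 0. In HPC they were -0.15 to 0.39 for Nr3c1, -0.058 to 0.20 for Fkbp5 and -0.16 to 0.14 for Klf9 between 5xFAD and WT mice. Between light-treated and untreated mice they were -0.035 to 0.51 for Nr3c1, -0.087 to 0.18 for Fkbp5, -0.0061 to 0.090 for Zbtb16 and -0.13 to 0.17 for Klf9. Between light-treated and WT mice they were -0.026 to 0.22 for Fkbp5, -0.11 to 0.097 for Klf9 and -0.23 to 0.065 for Mt2. In mLECs they were -11.38 to 0.14 for Zbtb16, -0.77 to 0.088 for Klf9, -0.014 to 0.47 for Mt1 and -0.32 to 0.62 for Mt2 between 5xFAD and WT mice. They were -3.06 to 8.40 for Zbtb16, -0.15 to 0.39 for Sgk1 and -0.20 to 0.58 for Errfi1 between light-treated and untreated mice, and -0.54 to 0.48 for Nr3c1, -0.54 to 0.18 for Fkbp5 and -0.33 to 0.25 for Sgk1 between light-treated and WT mice. In meninges, described without a test, they were -0.098 to 0.37 for Fkbp5, -0.66 to 0.028 for Klf9, -0.17 to 0.43 for Tsc22d3 and -0.77 to 0.23 for Errfi1 between 5xFAD and WT mice, -0.32 to 0.18 for Sgk1 between light-treated and untreated mice and -0.10 to 0.45 for Nr3c1 between light-treated and WT mice.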
